A study of Mus musculus with 6 samples.

Results

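Abundant noncoding RNAs were read out of the gene counts of 6 libraries made from mouse dorsal root ganglia, which house the cell bodies of sensory neurons. The set was given by 10 gene symbols, and 9 of them are listed among the 38926 symbols of the files. They are the RNA polymerase III transcripts Rn7sk, Rpph1 and Rmrp and the RNA polymerase II long noncoding RNAs Malat1, Neat1, Meg3, Miat, Snhg11 and Gas5. The remaining symbol, Kcnq1ot1, was not matched in the files and is not analysed here. The files hold 4 rows named KCNQ1OT1 with a numbered suffix, each with at most 2 reads in any library, and these were not taken for the whole RNA. All 9 listed genes passed the filter on low counts, and all carried reads in every library.

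The burn group holds 3 libraries of ganglia collected on day 3 after a burn injury, and the control group holds 3 libraries without that label. Both groups were wild-type C57BL/6 males aged 6 to 8 weeks. Ganglia of lumbar levels L3, L4 and L5 were stored in RNAlater, and stranded total RNA libraries were read from 1 end over 75 nucleotides. The labels speak of neurons as well as of whole ganglia, and the extraction they describe used whole ganglia. The title of burn 3 reads BURN_IP and carries no replicate number, so its number is only a name given here. IP may stand for ipsilateral, and the side of the other libraries is not stated. Nothing in the labels ties each library to an animal of its own, so p-values here reflect only how these samples vary, and that variation may be technical.

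Cells use these RNAs as parts of machines rather than as templates for protein. Polymerase III makes short RNAs that fold into enzymes and regulators: 7SK RNA (Rn7sk) holds the elongation kinase P-TEFb inactive together with Hexim proteins, RNase P RNA (Rpph1) trims the leader of transfer RNA precursors, and RNase MRP RNA (Rmrp) acts in the processing of ribosomal RNA precursors. Among the polymerase II transcripts, Malat1 gathers in nuclear speckles, Neat1 is the scaffold of paraspeckles, Meg3 is transcribed from the maternal copy of an imprinted domain, Miat is a nuclear RNA of neurons, and Snhg11 and Gas5 are spliced hosts of small nucleolar RNAs. In sensory ganglia such transcripts come from neurons, glia and other cells alike, and bulk libraries give their sum. A difference in bulk RNA cannot tell fewer or more cells of a type apart from less or more RNA per cell.

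The 3 polymerase III RNAs are shown because they held most of the reads of the set and because their small size bears on the length comparison given further on. Sequences are from the GENCODE transcripts on GRCm38, written as DNA from 5′ to 3′. Rn7sk is a single-exon gene of 331 bases on the minus strand at chr9:78175303-78175633. The capitals in Rn7sk mark GATC, in RNA the repeated motif recognised by HEXIM in the first hairpin of human 7SK.
Rn7sk: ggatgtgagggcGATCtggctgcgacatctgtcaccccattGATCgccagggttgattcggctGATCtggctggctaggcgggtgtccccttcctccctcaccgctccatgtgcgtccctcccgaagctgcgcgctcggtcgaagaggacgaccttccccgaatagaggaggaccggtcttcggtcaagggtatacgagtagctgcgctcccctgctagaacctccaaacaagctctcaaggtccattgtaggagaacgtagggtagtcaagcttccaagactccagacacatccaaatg
GATC, which reads the same on both strands, occurred 3 times, first at bases 13 and 42 of the transcript. It occurred at least 1 time in the first 331 bases of 61.9% of the 129282 annotated transcripts of at least that length, and 7.99% held as many copies as Rn7sk. Rpph1 has 319 bases at chr14:50807449-50807767 and Rmrp has 271 bases at chr4:43492788-43493058, both on the minus strand and both annotated as ribozymes. The capitals in Rpph1 and Rmrp mark the 2 longest stretches the pair share, 9 bases each. One starts at base 17 of Rpph1 and base 183 of Rmrp, the other at base 246 of Rpph1 and base 221 of Rmrp.
Rpph1: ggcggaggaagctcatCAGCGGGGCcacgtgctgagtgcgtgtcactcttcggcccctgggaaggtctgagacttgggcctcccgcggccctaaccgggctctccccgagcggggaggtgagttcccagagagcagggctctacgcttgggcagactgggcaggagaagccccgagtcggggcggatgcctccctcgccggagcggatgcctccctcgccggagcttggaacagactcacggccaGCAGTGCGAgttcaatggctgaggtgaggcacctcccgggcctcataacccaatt
Rmrp: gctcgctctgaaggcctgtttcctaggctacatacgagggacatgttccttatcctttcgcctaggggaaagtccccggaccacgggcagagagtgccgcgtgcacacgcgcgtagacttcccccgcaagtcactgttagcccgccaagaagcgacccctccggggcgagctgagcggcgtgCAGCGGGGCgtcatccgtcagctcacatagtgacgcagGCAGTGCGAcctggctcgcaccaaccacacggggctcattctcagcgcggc
Of Rn7sk and Rpph1 the first 300 bases are printed. G and C made up 58.0% of Rn7sk, 67.1% of Rpph1 and 64.2% of Rmrp over their whole length.

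Depth and the other contents of the libraries differed. Gene reads per library were 22023565 to 70002671 in burn and 17273908 to 81968142 in control, and burn 3 and control 3 lay above the widest gap between neighbouring totals, a ratio of 1.95. Those 2 deeper libraries also stood apart on the leading principal component, which held 39.4% of the variance, and had more mitochondrial reads, 5.44% in burn 3 and 4.41% in control 3 against 1.71% to 2.70% in the other 4. None of the 9 lists of cell type markers was at 0. Summed neuron markers were 7728 to 9983 RPM in burn (RPM, reads per 1000000 gene reads, here without further scaling) and 8845 to 11026 in control. Satellite glia markers were 2844 to 3387 in burn and 3113 to 3609 in control, and Schwann cell markers were 3958 to 7513 in burn and 4952 to 9357 in control. Skeletal muscle markers, a sign of tissue around the ganglion, were 1295 to 8530 in burn and 526 to 9498 in control. Spinal cord markers were 287 to 518 in burn and 271 to 441 in control, with 7 of 8 positive in burn against control, 6 at an unadjusted p under 0.05 and 0 called in edgeR's quasi-likelihood test, and a median log2 fold change of 1.33. Markers of injured neurons were 202 to 318 in burn and 128 to 161 in control, with 7 of 7 positive and 3 called. What part depth and tissue content have in the results that follow was not tested, except where values within the deeper and shallower libraries are given.

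No member of the set differed between burn and control past the threshold, an adjusted p under 0.05 in edgeR's quasi-likelihood test with Benjamini-Hochberg adjustment over all 17534 genes tested. The background was 0.0228% of tested genes called higher in burn, the 4 genes Atf3, Gpr151, Lipn and Npy, and 0% called lower. At an unadjusted p under 0.05, 2.04% of tested genes were higher in burn and 0.924% lower, and 1 of the 9 members, Snhg11, was higher. The fold changes were positive for 8 members and negative for Neat1, against 52.1% positive among all tested genes. The median log2 fold change was 0.18 over the members and 0.01 over all tested genes. On levels scaled for edgeR's quasi-likelihood test, groups did not overlap for 1 of the 9 members. The background on those scaled levels was 7.24% of all tested genes in either direction, 4.33% with burn higher and 2.91% with burn lower. Overlap of single genes in the rest of the text is judged on unscaled RPM, where groups also did not overlap for 1 member.

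**Figure D1:**
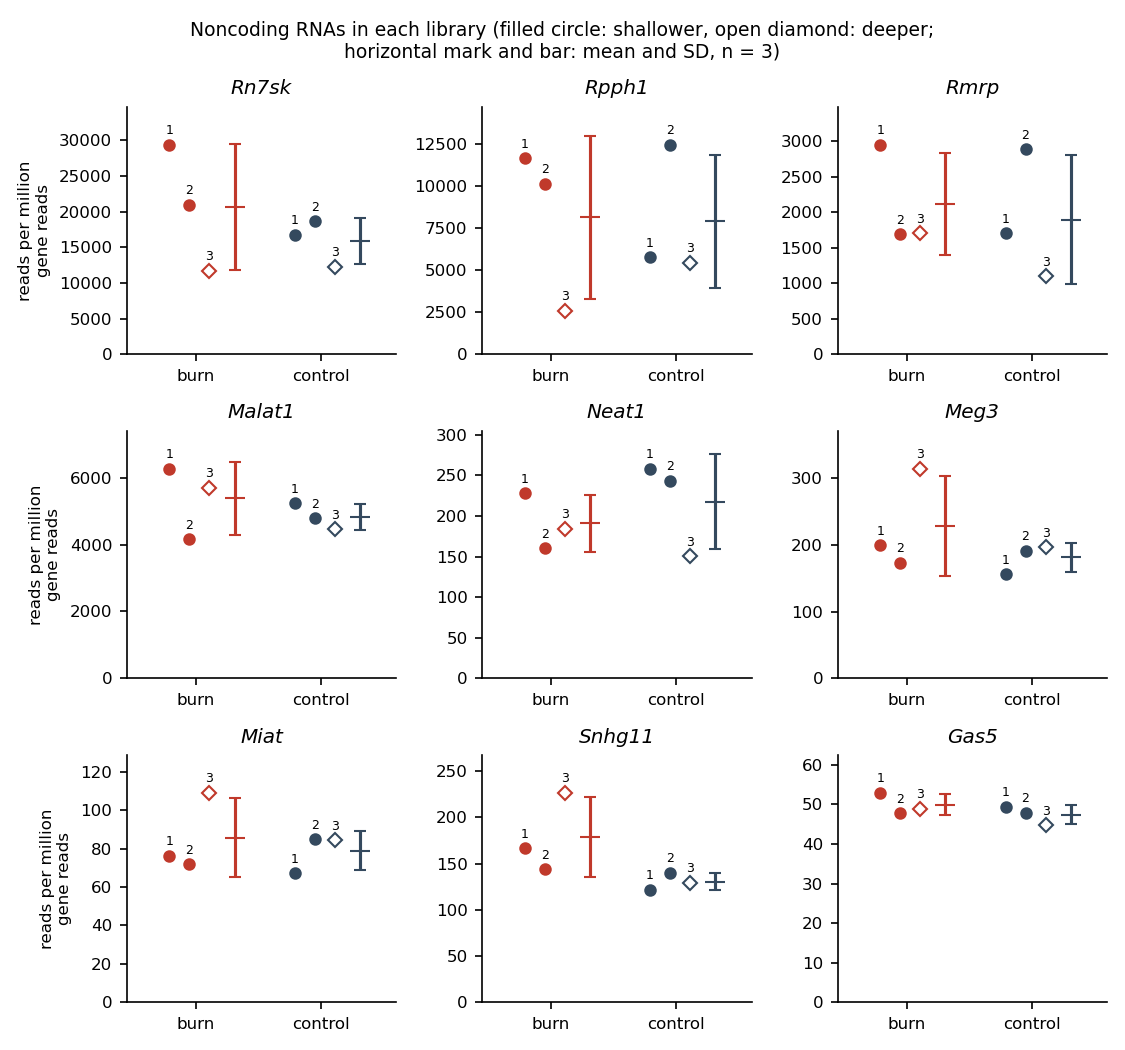
RPM, reads per 1000000 gene reads (vertical axes, each starting at 0) of the 9 noncoding RNAs in the 3 burn and 3 control libraries, with the mean and SD of each group beside the points. Burn and control points overlap for every RNA except Snhg11, and Rpph1 is lowest in burn 3, at 2598.

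Rn7sk was the largest member, and second by mean share among all gene symbols. It made up 29389, 20990.3 and 11753 RPM in burn 1, 2 and 3, against 16779, 18657 and 12274 in control 1, 2 and 3. The highest and the lowest libraries were both burn libraries, and the low ones were the 2 deeper libraries. Mean levels were 20711 ± 8821 in burn and 15903 ± 3280 in control (SD, n = 3 each), a log2 fold change of 0.40 (SE 0.31, 95% interval -0.31 to 1.11). The adjusted p of edgeR's quasi-likelihood test with Benjamini-Hochberg adjustment was 0.9998, as for every other member. Within the 2 deeper libraries the log2 difference was -0.01, and within the 4 shallower libraries it was 0.54. Without burn 1 the log2 fold change was 0.09 and without burn 3 it was 0.67. Of the 75-base stretches of Rn7sk, 65.0% occur exactly in transcripts of 4 other annotated genes, so its reads could be split or lost as not unique.

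Proteins of the 7SK particle and of P-TEFb gave 0 called of 7 tested, 3 positive and 4 negative, with a median log2 fold change of -0.00. The member named from that list was Hexim1, the inhibitor that 7SK carries. Hexim1 had 48.2, 39.8 and 44.5 RPM in the burn libraries, against 57.3, 47.8 and 56.5 in the control libraries. The groups overlapped in part, and the log2 fold change was -0.26 (SE 0.13). RNA polymerase III subunits and factors gave 0 called of 25 tested, 16 positive, with a median of 0.02. Snapc2, a subunit of the complex that recruits polymerase III to genes of the 7SK type, stood at -0.20 (SE 0.14) on the log2 scale, and its partner subunit Snapc5 at -0.18 (SE 0.13).

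Rpph1, the third gene by mean share, varied most among the 9 RNAs. It had 11662, 10158 and 2598 RPM in burn 1, 2 and 3, against 5792, 12464 and 5458 in control 1, 2 and 3. Its lowest library, burn 3, lay below every other library, and control 2 was the highest, 4.80 times burn 3. Mean levels were 8139 ± 4857 in burn and 7905 ± 3952 in control (SD, n = 3 each), with a log2 fold change of 0.06 (SE 0.54, 95% interval -1.21 to 1.32). These libraries do not tell the values within that interval apart. The SD of its log2 level over the 6 libraries was 0.819, above that of 98.6% of the 10777 genes with a mean of at least 10 RPM, whose median SD was 0.168. Within the 2 deeper libraries the log2 difference was -1.02, and within the 4 shallower ones it was 0.30.

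The level of Rpph1 was followed most closely across the 6 libraries by Tyrobp, Gli1 and Csf3r, with root mean square differences of 0.349, 0.365 and 0.384 on the centred log2 scale among 10776 genes searched. Tyrobp, a signalling adaptor of macrophages and other myeloid cells, had 37.0, 30.8 and 13.7 RPM in burn 1, 2 and 3, against 29.6, 40.1 and 16.7 in control 1, 2 and 3. Gli1 is a transcription factor of Hedgehog signalling, and Csf3r is the receptor for granulocyte colony-stimulating factor. Summed macrophage markers were 656, 513 and 294 RPM in burn 1, 2 and 3, against 600, 593 and 279 in control 1, 2 and 3. Rpph1, Tyrobp and the macrophage sum were all lower in the 2 deeper libraries than in any of the 4 shallower ones, Rpph1 in control 3 only just below control 1. This likeness is a description over 6 libraries that share 2 depths.

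Rmrp had 2948, 1691 and 1706 RPM in burn 1, 2 and 3, against 1706, 2887 and 1098 in control 1, 2 and 3. The groups overlapped almost fully. Mean levels were 2115 ± 721 in burn and 1897 ± 910.0 in control (SD, n = 3 each), a log2 fold change of 0.19 (SE 0.35, 95% interval -0.62 to 1.004). The sign turned to -0.09 without burn 1 and to -0.06 without control 3. Rmrp lies opposite exons of Ccdc107, whose row held 497, 727 and 1479 reads in the burn libraries and 981, 525 and 1752 in the control libraries. Whether counting used strand is not stated, so reads of the pair cannot be told apart, though Ccdc107 held far fewer. Rpph1 overlaps exons of Ccnb1ip1 on the same strand, and the Ccnb1ip1 row held at most 11 reads in any library. Reads that fall in both may have been set aside as ambiguous and lost to either row.

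RNase P and RNase MRP share most of their proteins, and the ratio of their RNAs varied between libraries. The ratio of Rpph1 to Rmrp reads was 3.96, 6.01 and 1.52 in burn 1, 2 and 3, against 3.40, 4.32 and 4.97 in control 1, 2 and 3. The control ratios lay inside the range of the burn ratios (exact two-sided permutation test p = 0.8, smallest possible 0.1). Of the 11 protein genes of RNase P and RNase MRP, 1 was positive and 10 were negative in burn against control, with a median log2 fold change of -0.06 and 0 called. Rpp25l, one of those subunits, had 8.31, 10.01 and 7.69 RPM in burn and 11.3, 13.95 and 9.47 in control, a log2 fold change of -0.38 (SE 0.17). Pop1, the largest shared protein, had a log2 fold change of -0.22 (SE 0.18).

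Malat1 was the most abundant long noncoding RNA and sixth by mean share among all symbols. It had 6264, 4165 and 5700 RPM in burn 1, 2 and 3, against 5232, 4792 and 4465 in control 1, 2 and 3. The control libraries fell inside the range of the burn libraries. Mean levels were 5376 ± 1086 in burn and 4830 ± 385 in control (SD, n = 3 each), with a log2 fold change of 0.18 (SE 0.19, 95% interval -0.25 to 0.62). The sign was the same within the deeper libraries, at 0.40, and within the shallower ones, at 0.08. RefSeq lists 2169 of the symbols as long noncoding RNA genes, and together they held 0.760% to 0.941% of gene reads in burn and 0.813% to 1.01% in control. Malat1 alone made up 66.6%, 54.8% and 62.8% of those reads in burn 1, 2 and 3, against 61.8%, 58.9% and 44.3% in control 1, 2 and 3.

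Neat1, the neighbour of Malat1 on chromosome 19, was the single member with a negative fold change. It had 228, 160 and 184 RPM in burn 1, 2 and 3, against 258, 244 and 150 in control 1, 2 and 3. The lowest library was a control, so the groups overlapped. Mean levels were 191 ± 34.6 in burn and 217 ± 58.6 in control (SD, n = 3 each), a log2 fold change of -0.15 (SE 0.21, 95% interval -0.64 to 0.34). The sign turned between depths, with 0.34 within the 2 deeper libraries and -0.34 within the 4 shallower ones. The ratio of Malat1 to Neat1 reads was 27.4, 26.0 and 30.9 in burn, against 20.3, 19.7 and 29.7 in control (exact two-sided permutation test p = 0.3, smallest possible 0.1). Burn libraries held the highest ratio at each depth, but control 3 lay above burn 1 and burn 2.

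Protein genes of the bodies in which Malat1 and Neat1 reside gave no calls. Of 17 paraspeckle protein genes, 10 were positive and 7 negative, with a median log2 fold change of 0.04. Ewsr1, an RNA-binding protein, had 69.7, 67.6 and 63.0 RPM in burn and 71.1, 78.9 and 70.4 in control, without overlap, and a log2 fold change of -0.11 (SE 0.09). Of 11 nuclear speckle protein genes, 6 were positive and 5 negative, with a median of 0.02. The genes named from that list, Srrm1 and Srrm2, had log2 fold changes of 0.30 (SE 0.17) and 0.27 (SE 0.20).

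Meg3 had 199.2, 174 and 314 RPM in burn 1, 2 and 3, against 156, 191 and 197 in control 1, 2 and 3. Burn 3 stood above the other 5 libraries, and the rest overlapped. Mean levels were 229 ± 74.9 in burn and 181 ± 22.1 in control (SD, n = 3 each), with a log2 fold change of 0.38 (SE 0.26, 95% interval -0.22 to 0.97). The log2 difference was 0.72 within the 2 deeper libraries and 0.14 within the 4 shallower ones. Its SD on the log2 scale was the largest among the polymerase II members, at 0.390. The genes that followed Meg3 most closely across the 6 libraries were Ppp1r9a, Gbp3 and Tmem245, with root mean square differences of 0.0667, 0.0731 and 0.0762. Ppp1r9a, which encodes the actin-binding protein neurabin, had 82.5, 71.3 and 123.9 RPM in burn and 68.3, 84.2 and 88.5 in control.

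Meg3 belongs to the Dlk1-Dio3 imprinted domain, together with the noncoding transcripts Rian and Mirg. Of 6 genes listed for that domain, 4 were tested, with 3 positive, 0 called and a median log2 fold change of 0.10. Rian had 215, 218 and 259 RPM in burn, against 238, 182 and 247 in control. The ratio of Meg3 to Rian reads was 0.927, 0.797 and 1.21 in burn and 0.657, 1.048 and 0.798 in control (exact two-sided permutation test p = 0.5, smallest possible 0.1). Dlk1, a protein-coding gene of the domain, had 4.04, 1.93 and 1.74 RPM in burn and 1.64, 1.79 and 1.40 in control, and its log2 fold change was 0.68 (SE 0.33). Burn 1 alone was high for Dlk1.

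Miat had 76.4, 71.8 and 109 RPM in burn 1, 2 and 3, against 67.3, 84.9 and 84.4 in control 1, 2 and 3. As for Meg3, burn 3 was the highest library and control 1 the lowest. Mean levels were 85.7 ± 20.3 in burn and 78.9 ± 10.02 in control (SD, n = 3 each), a log2 fold change of 0.16 (SE 0.21, 95% interval -0.32 to 0.64). The sign turned to -0.09 without burn 3, and the log2 difference was -0.00 within the 4 shallower libraries and 0.42 within the 2 deeper ones.

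Snhg11 came closest to a difference between the groups. It had 166, 144 and 227 RPM in burn 1, 2 and 3, against 122, 140.4 and 130 in control 1, 2 and 3. All burn libraries lay above all control libraries, burn 2 only just above control 2. Mean levels were 179 ± 42.8 in burn and 131 ± 9.29 in control (SD, n = 3 each), with a log2 fold change of 0.49 (SE 0.20, 95% interval 0.04 to 0.95) and an unadjusted p of 0.0381 from edgeR's quasi-likelihood test. The adjusted p with Benjamini-Hochberg adjustment was 0.9998. The unadjusted p was not under 0.05 in every alternative fit. It was 0.0519 with limma-voom. In edgeR's quasi-likelihood test it was 0.0883 in the 4 shallower libraries and 0.185 with a block on the libraries numbered 1 and 2. Without burn 3 that test gave 0.0888, and leaving out a control library gave 0.0536 to 0.111. In the other alternative fits it stayed under 0.05, at 0.0205 with DESeq2. The log2 difference was 0.85 within the 2 deeper libraries and 0.27 within the 4 shallower ones, and without burn 3 the log2 fold change was 0.25. Burn 3 was highest for Snhg11, Meg3 and Miat. Its summed neuron markers were the lowest of the 6 libraries, at 7728 RPM, and their part in these values was not tested.

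Gas5 was the steadiest of the set. It had 52.9, 47.8 and 48.9 RPM in burn 1, 2 and 3, against 49.5, 47.9 and 44.7 in control 1, 2 and 3. The highest library was 1.183 times the lowest, and the groups overlapped. Mean levels were 49.9 ± 2.69 in burn and 47.4 ± 2.40 in control (SD, n = 3 each), with a log2 fold change of 0.10 (SE 0.10, 95% interval -0.12 to 0.33). Its SD on the log2 scale was 0.0768, and 6.39% of the 10777 genes with a mean of at least 10 RPM had a lower one. The log2 difference was 0.18 within the 2 deeper libraries and 0.08 within the 4 shallower ones.

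Among the other snoRNA host genes, 8 of 18 listed were in the files and tested, 7 positive and 0 called, with a median log2 fold change of 0.19. Snhg6 had 11.1, 10.8 and 11.1 RPM in burn and 9.97, 10.4 and 8.59 in control. The groups did not overlap, and the log2 fold change was 0.22 (SE 0.13). Snhg4 had a log2 fold change of 0.23 (SE 0.23), with overlap. Gas5 and other spliced snoRNA hosts are degraded by nonsense-mediated decay, and of 10 decay factors 5 were positive and 0 called. The kinase Smg1 of that pathway had 172, 137 and 168 RPM in burn and 138, 149 and 122 in control, with a log2 fold change of 0.26 (SE 0.13).

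**Figure D2:**
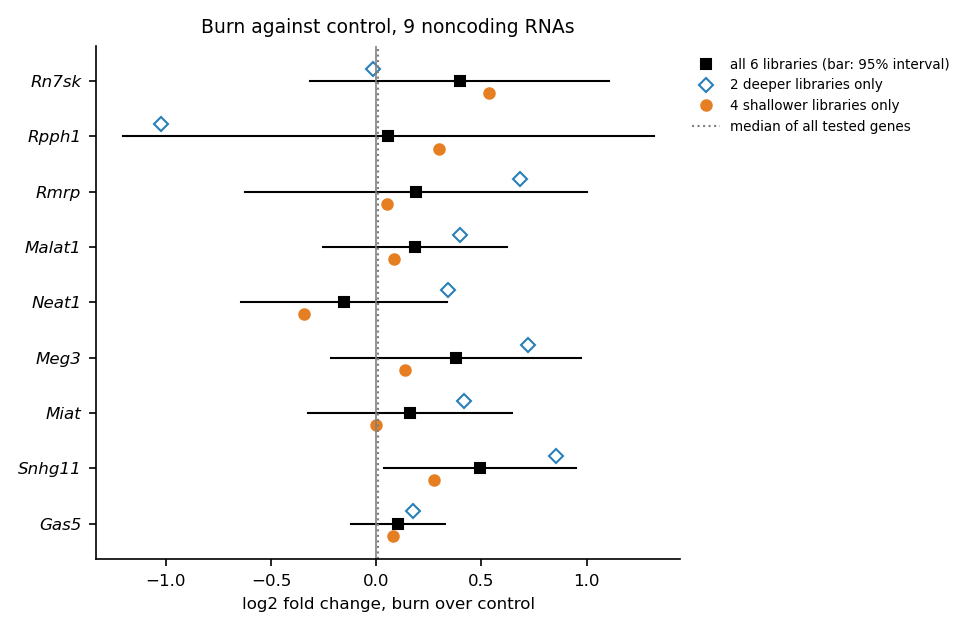
Log2 fold change of burn over control (horizontal axis) for the 9 noncoding RNAs, with squares and 95% intervals from the fit of all 6 libraries, diamonds for the 2 deeper libraries and circles for the 4 shallower ones. Every interval but that of Snhg11 crosses 0, and Rpph1 has the widest, -1.21 to 1.32.

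In the plot of fold changes, the within-depth values of Rn7sk and Rpph1 lie to the right in the shallower libraries, while those of the other 7 RNAs lie to the right in the deeper ones. With 1 library per group, the deeper values have no test. For Rn7sk they were -0.01 in the deeper pair and 0.54 in the shallower libraries, and for Rmrp 0.68 and 0.05.

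Summed over the set, the 9 RNAs took 5.10%, 3.76% and 2.26% of gene reads in burn 1, 2 and 3, against 3.02%, 3.95% and 2.39% in control 1, 2 and 3. Means were 3.71 ± 1.42% in burn and 3.12 ± 0.785% in control (SD, n = 3 each), and an exact two-sided permutation test gave p = 0.7, where 0.1 is the smallest possible. The 3 polymerase III RNAs made up 4.40%, 3.28% and 1.61% in burn, against 2.43%, 3.40% and 1.88% in control (exact p = 0.7). The lowest of these were the deeper libraries of both groups. The 6 long noncoding RNAs made up 0.699%, 0.476% and 0.658% in burn, against 0.588%, 0.550% and 0.507% in control (exact p = 0.5). The 95% Wilson interval of each summed share was within 0.00919 percentage points of its value, so the spread between libraries far exceeds counting error.

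The ratio of the polymerase III sum to the polymerase II sum was 6.30, 6.90 and 2.44 in burn 1, 2 and 3, against 4.13, 6.18 and 3.71 in control 1, 2 and 3. Burn 3 was the lowest and burn 2 the highest. On the log2 scale the means were 2.24 ± 0.830 in burn and 2.19 ± 0.388 in control (SD, n = 3 each), a difference of 0.05 (exact two-sided permutation test p = 0.8). Without Rn7sk the difference was -0.14, and without burn 1 or burn 2 it also turned negative. The ratio of Rn7sk to Rpph1 reads was 2.52, 2.07 and 4.52 in burn and 2.90, 1.497 and 2.25 in control (exact p = 0.5).

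**Figure D3:**
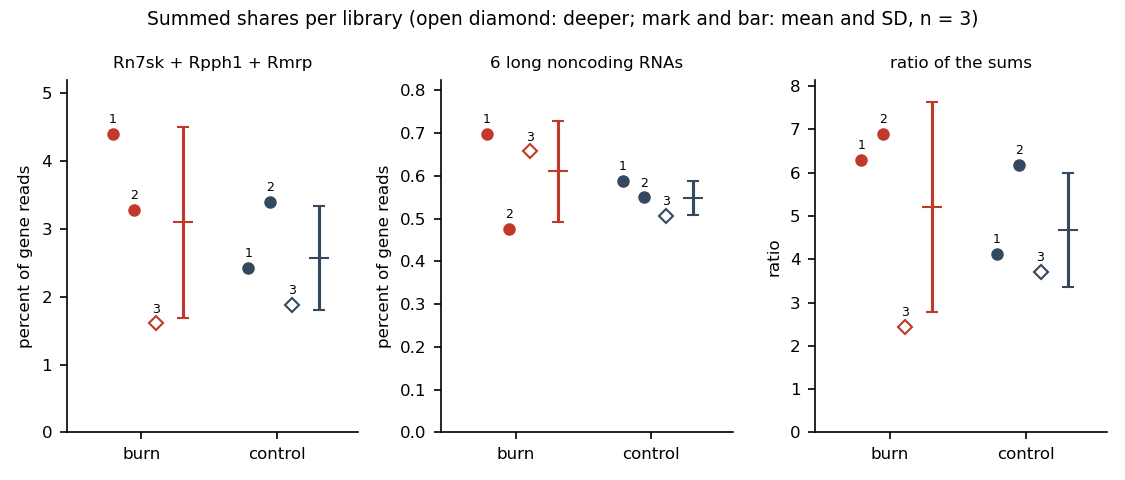
Summed share of gene reads in percent for Rn7sk, Rpph1 and Rmrp (left) and for the 6 long noncoding RNAs (middle), and the ratio of the 2 sums (right), by library, with mean and SD of each group. The 2 groups overlap in all panels, and burn 3 has the lowest polymerase III share, 1.61%.

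Compared per length, the members covered several orders of magnitude. Levels were expressed as reads per kilobase of annotated exon per 1000000 gene reads. Rn7sk averaged 55308 over the 6 libraries, with a range of 35508 to 88788. Rpph1 averaged 25147, with a range of 8145 to 39073, and Rmrp averaged 7138, with a range of 3906 to 10491. Each was above the next in 6 of 6 libraries, although the ranges of these neighbours overlapped. Malat1 followed at 731, with a range of 596 to 897 that overlapped neither Rmrp above it nor Snhg11 below it. Snhg11 had 18.2, above Gas5 in 6 of 6 libraries without overlap of the ranges. The last 4 were Gas5 at 12.9, Meg3 at 11.3, Neat1 at 9.83 and Miat at 8.86. Their order was not firm, since Gas5 exceeded Meg3 in 5 of 6 libraries, Meg3 exceeded Neat1 in 4 of 6 and Neat1 exceeded Miat in 3 of 6.

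**Figure D4:**
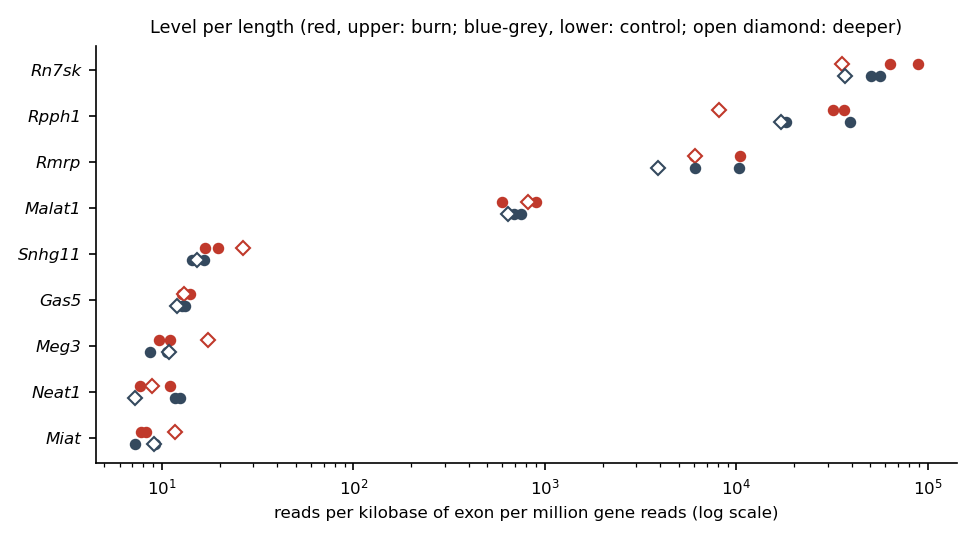
Reads per kilobase of exon per 1000000 gene reads (horizontal log axis) of the 9 noncoding RNAs in each library, burn above control within each line. The 3 polymerase III RNAs lie between 3906 and 88788, Malat1 between 596 and 897, and the other 5 at 26.6 or less.

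Among the 2169 long noncoding RNA symbols of RefSeq, Malat1 had rank 1 by mean RPM, Meg3 rank 4, Neat1 rank 5, Snhg11 rank 7, Miat rank 8 and Gas5 rank 11. The symbols between them were AY036118 at 766, Rian at 226, H19 at 166, Tug1 at 68.8 and D930028M14Rik at 51.1. These ranks hold within the RefSeq symbols only. 1700020I14Rik, from the list of other long noncoding RNAs, is not among those symbols. Its mean was 363 RPM in burn and 346 in control, above Rian, Meg3 and Neat1. H19, an imprinted RNA, had 188, 108 and 71.2 RPM in burn 1, 2 and 3, against 308, 241 and 80.8 in control 1, 2 and 3, and was low in the 2 deeper libraries. Of 14 other long noncoding RNAs tested, 12 were positive, 0 called, and the median log2 fold change was 0.13. Mir22hg, the host of a microRNA, had 17.6, 24.1 and 25.6 in burn and 19.3, 18.2 and 17.1 in control, a log2 fold change of 0.34 (SE 0.18). A330023F24Rik had a log2 fold change of 0.36 (SE 0.19).

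Shorter structural RNAs were high in 1 library in which the 3 polymerase III members were not, a contrast that was not tested. Among the listed other structural RNAs, the named genes were Rny1 and Rny3, the Y RNAs, polymerase III transcripts bound by the Ro60 protein. They are shown because their high values sit in burn 3 alone. Rny1 has 112 bases on the minus strand at chr6:47788069-47788180, and Rny3 has 102 bases on the plus strand at chr6:47781624-47781725. The capitals mark the longest stretch the pair share, 12 bases that start at base 46 of Rny1 and base 45 of Rny3, and both end in a run of 4 T.
Rny1: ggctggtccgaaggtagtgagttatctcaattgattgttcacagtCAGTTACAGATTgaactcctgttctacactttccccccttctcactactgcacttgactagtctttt
Rny3: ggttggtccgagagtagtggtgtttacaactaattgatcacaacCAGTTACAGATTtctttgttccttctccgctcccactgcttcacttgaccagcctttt
Rny3 had 56.0, 26.0 and 534 RPM in burn 1, 2 and 3, against 16.1, 39.1 and 15.5 in control 1, 2 and 3. Rny1 had 32.2, 15.7 and 152 in burn and 10.8, 28.0 and 11.5 in control. For both genes the groups overlapped, with burn 3 and also without it. The log2 fold changes were 3.24 (SE 1.30) for Rny3 and 2.11 (SE 0.97) for Rny1, and neither passed the threshold in edgeR's quasi-likelihood test with Benjamini-Hochberg adjustment (adjusted p = 0.9998). Of the 6 other structural RNAs tested, 5 were positive, with a median of 1.52. The telomerase RNA Terc was the negative one, at -0.71 (SE 0.37).

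The pattern by length was looked for after these values were seen. Annotated structural RNAs were summed by length. Those under 200 bases summed to 709.7, 458 and 2954 RPM in burn 1, 2 and 3, against 470.3, 802 and 308 in control 1, 2 and 3. Burn 3 stood far above the other 5 libraries there. From 200 to under 300 bases, where Rmrp led, sums were 3483, 2065 and 2433 in burn and 2039, 3523 and 1381 in control. From 300 to under 500 bases, where Rn7sk led with 69.2% of the reads, sums were 42168, 32032 and 14941 in burn and 23231, 32354 and 18234 in control. Burn 3 was the lowest library in that longest class. Rmrp held 78.4% of the reads of its class, and the rest of that class summed to 535, 373 and 728 RPM in burn and 333, 635 and 283 in control, highest in burn 3.

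Counted gene by gene, 61 of 69 structural RNAs under 250 bases outside the set, each with a mean of at least 1 RPM, were highest in burn 3. None of 16 such RNAs of 250 bases or more was. The median log2 ratio of burn 3 over control 3 was 3.10 in the shorter class and 0.60 in the longer one. Over the shallower libraries, burn 1 and 2 over control 1 and 2, the medians were -0.23 and 0.14. The mean of at least 1 RPM includes burn 3, so RNAs low elsewhere could pass through burn 3 alone. Gm25636, for one, had 3.57 RPM in burn 3 and at most 0.753 in any other library. The count and the median ratio of the shorter class depend in part on that filter. In the longer class, Gm24146, Gm26035 and Gm26315 share exact stretches of read length with Rn7sk. Their reads may therefore not be independent of Rn7sk, and fewer than 16 RNAs may be independent there. Gm23153, Gm23973 and Gm22567 of that class had 0.183, 0.146 and 0.146 RPM in control 3, so their ratios rest on few reads. Such low values occurred in the shorter class too, with 0.0244 for Gm25682. The share of all genes that were highest in burn 3 was not counted. The length of 250 bases was chosen after the values were seen, and these counts have no test. Rn7sk, Rpph1 and Rmrp lie on the longer side of it.

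**Figure D5:**
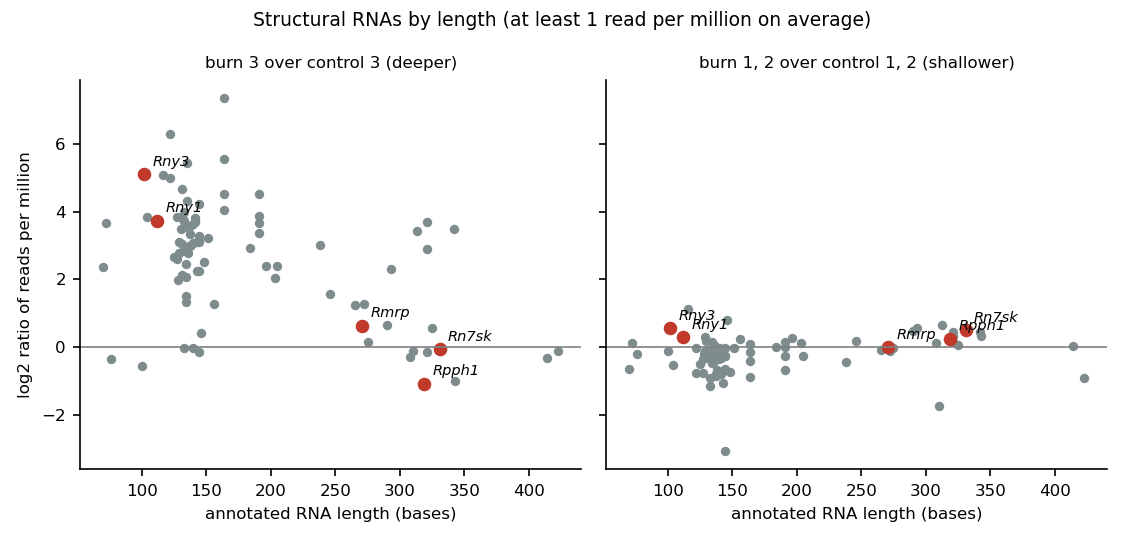
Log2 ratio of RPM (vertical axis) against annotated RNA length in bases for structural RNAs with a mean of at least 1 RPM, burn 3 over control 3 (left) and the mean of burn 1 and 2 over that of control 1 and 2 (right). The mean used for that filter includes burn 3. RNAs under 250 bases have a median of 3.10 on the left and -0.23 on the right, those of 250 bases or more 0.60 and 0.14, and Rn7sk, Rpph1 and Rmrp are marked.

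Overlaps with other genes touched the spliced hosts as well. Inside Gas5, the rows of 7 small nucleolar RNAs in the files held 0 reads in all 6 libraries. Their annotation overlaps exons of Gas5 on the same strand. Reads there may have been set aside as ambiguous, so 0 does not show that these RNAs were absent. Inside an intron of Snhg11, the snoRNA row Gm25129 held 35, 40 and 555 reads in burn 1, 2 and 3, against 32, 49 and 91 in control 1, 2 and 3. Snhg11 itself had 3664, 4321 and 15862 reads in burn and 4387, 2425 and 10616 in control, all raw counts without allowance for depth, and burn 3 held the most reads of both. Gas5 runs opposite to Zbtb37 with no exon in common. Exact 75-base matches in other genes covered 64.9% of Rpph1, all in Ccnb1ip1, and 24.2% of Rmrp, all in Ccdc107. They covered 5.66% of Malat1, 0.783% of Neat1, 7.63% of Meg3, 20.1% of Miat, 0.518% of Snhg11 and 1.01% of Gas5.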

How the data were processed

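Total RNA of 3 burn and 3 control samples was analysed, all 6 libraries. The authors deposited raw counts of reads per gene symbol, 1 file per library; STAR, SAMtools and HTSeq, and the builds GRCm38 and mm10, come per the submitters' processing notes without versions. Annotation release and strand setting: not given in the sources used here. The 5 tally lines, 49.2% to 56.2% of entries (34.7% to 42.8% not unique), name no gene and were left out, and there were 17273908 to 81968142 gene reads per library. Reads carry no molecular identifiers, so the Wilson intervals (95%, at most 6.82% of a member's value) cover counting error only. Libraries of 1 group differed far beyond sampling noise, with 40.5 to 189 as chi-square per degree of freedom.

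Shares are RPM, reads per 1000000 gene reads, unscaled. edgeR 4.0.16 in R 4.3.3 was run on the counts of all genes passing filterByExpr (minimum count 10, minimum total 15; 17534 genes), with TMM factors, robust glmQLFit and glmQLFTest, two-sided, group as the only term, and genes were called at a Benjamini-Hochberg adjusted p under 0.05. Log2 fold changes are on the TMM scale. Sums and ratios were compared by exact permutation of samples (scipy 1.17.1). The test was tested on simulated data. Members and lists were chosen with earlier results of these data known. Named genes were all members, all called genes of each list or otherwise the 2 with the lowest p and mean log2 CPM of at least 0 (1 gene for lists under 8), and the 3 genes nearest to the most variable member of each class. Rian, Mirg, Terc, H19, Rmst, Gm25129, Gm26315 and other genes outside that rule were named after their values were seen. A few genes that the rule names are left out of the text. Annotation and transcripts are GENCODE mouse release 21, and long noncoding RNA classes are RefSeq's. Alternatives were other scalings, filters and tests (DESeq2 1.42.0, limma-voom 3.58.1), removal of mitochondrial, haemoglobin and ribosomal RNA genes, a replicate block, depth settings and leaving out each library.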

Additional observations from a re-analysis of the deposited data

How the results depend on the processing

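No member was called in any of the 20 alternative fits, and Malat1, Meg3, Snhg11 and Gas5 kept a positive log2 fold change in all 21 settings (0.06 to 0.40, 0.04 to 0.72, 0.25 to 0.85 and 0.07 to 0.18). Snhg11 reached 0.85 in the 2 deeper libraries. The sign turned for Rn7sk (-0.015), Rpph1 (-1.02) and Neat1 (0.34) in the 2 deeper libraries, for Miat in the 4 shallower ones (-0.0024), and for Rpph1 with limma-voom (-0.070) and with log2 depth as covariate (-0.11). Leaving out 1 library gave Rpph1 -0.27 to 0.51, Rmrp -0.089 to 0.60 and Miat -0.090 to 0.29. The summed share difference was -0.13 percentage points in the 2 deeper libraries and -0.11 to 1.31 without 1 library. The log2 ratio of polymerase III to polymerase II RNAs differed by -0.61 in the 2 deeper libraries, by -0.14 without Rn7sk and by -0.22 to 0.53 without 1 library. Over all genes, 4 were called, against 14 with no filter, 2 at a minimum count of 50, 28 with DESeq2 on all 29007 genes with reads, 29 with DESeq2 on the filtered genes (chosen after seeing the data), 8 with log2 depth as covariate, 15 in the 4 shallower libraries, 2 after thinning and 1 to 6 without 1 library. The cause was not tested. Same-numbered libraries had correlations of deviations from the group means of -0.09 and -0.06 for numbers 1 and 2, the only numbers in both groups' titles. The correlation was 0.438 for burn 1 with control 2, 0.382 for burn 2 with control 1 and 0.444 for burn 3 with control 3. Deviations from a mean of 3 libraries are tied to each other, so these values cannot settle whether the numbers pair the samples. A replicate block on the 4 libraries numbered 1 and 2 called 4 genes and 0 members. With 3 libraries a group, permutation p-values cannot go below 0.1, and leaving out a library leaves wide intervals.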

Other observations

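Rmst, a long noncoding RNA of neural tissue, lay outside the rule for named genes because its mean log2 CPM was under 0, and it was picked out after its values were seen. It had 1.68, 0.931 and 1.24 RPM in burn 1, 2 and 3, against 0.556, 0.695 and 0.317 in control 1, 2 and 3. The groups did not overlap, and the log2 fold change was 1.41 (SE 0.36), with an unadjusted p of 0.00507 and an adjusted p of 0.9998 in edgeR's quasi-likelihood test with Benjamini-Hochberg adjustment. Spinal cord markers were 7 of 8 positive, with a median log2 fold change of 1.33 and sums of 449.7, 287 and 518 RPM in burn, against 326, 441 and 271 in control, and their part in the Rmst values was not tested.

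Of the genes listed for the Kcnq1 imprinted domain, in which Kcnq1ot1 lies, 10 of 11 were tested, 2 positive and 0 called, with a median log2 fold change of -0.09. Tssc4 had 20.2, 19.8 and 16.8 RPM in burn, against 20.3, 26.0 and 20.6 in control, without overlap. Th, the tyrosine hydroxylase of catecholamine synthesis, had 72.6, 82.3 and 62.9 in burn and 82.5, 76.2 and 85.5 in control, with overlap.

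Gm26315, 1 of the 4 genes whose transcripts share exact 75-base stretches with Rn7sk, was low in 1 library. It had 56.6, 40.2 and 23.9 RPM in burn 1, 2 and 3, against 39.0, 37.4 and 1.85 in control 1, 2 and 3. Gm24146, another of them, had 18.4, 13.7 and 7.20 in burn and 11.2, 12.4 and 7.87 in control, and was not low in control 3 alone. Rn7sk had 12274 in control 3 and 11753 in burn 3.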
